A study of Mus musculus with 4 samples.

Results

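The TGF-beta genes described here are 10 members of 1 pathway, taken by symbol from the deposited expression table. They are the ligands *Tgfb1*, *Tgfb2* and *Tgfb3*, the latent complex gene *Ltbp1*, the receptors *Tgfbr1*, *Tgfbr2* and *Tgfbr3*, the signal transducers *Smad2* and *Smad3*, and *Tgfbi*, a gene named for its induction by TGF-beta. All 10 were found among the 18373 genes listed, and all 10 passed the filter on low counts, which kept 13628 genes for testing. The libraries were made from primary liver sinusoidal endothelial cells (LSECs), the fenestrated endothelium that lines the sinusoids, to ask what silencing of the long noncoding RNA *Airn* does to these cells. LSECs came from livers of 8-week-old Balb/c mice and were released by perfusion, with pronase and collagenase per the labels, whereas the methods name collagenase alone for LSECs. The methods add a selection with magnetic beads against CD146, an endothelial surface protein. Every library came from cells cultured for 24 h and then transfected for 48 h, labelled as day 3. The 2 groups were the control siRNA (NC, n = 2 libraries) and siRNA against *Airn* (siAirn, n = 2 libraries). The methods speak of separate siAirn duplexes, whereas the titles of both siAirn libraries carry siAirn1, so which duplex each received is not settled here. The labels call the libraries biological replicates but name no mouse or isolation, so the p-values measure the spread between these samples, which may be technical.

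*Airn* itself was counted at 7 and 3 reads in the NC libraries and at 11 and 9 in the libraries labelled siAirn, too few to be tested, and it was not lower in the latter. Directions below are therefore those of the libraries labelled siAirn. Estimated counts summed to between 17308382 and 18371959 per library. The 10 most abundant genes held 3.97% to 4.48% of the counts. The biological coefficient of variation was 0.0754. Across the 13628 genes the median log2 fold change was 0.00. The fold change of a gene correlated across genes with its GC content (Spearman's rho = -0.33) and its transcript length (rho = 0.37), a description over genes, which are not independent replicates. With the genes cut into 5 equal bins by GC content, the median fold change ran from 0.15 in the lowest bin to -0.14 in the highest.

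TGF-beta is secreted in a latent form, in which its own propeptide encloses the cytokine and is tethered to the extracellular matrix by latent TGF-beta binding proteins such as LTBP1. Freed ligand binds the type II receptor TGFBR2, which activates the type I receptor TGFBR1, and this kinase phosphorylates SMAD2 and SMAD3, which enter the nucleus with SMAD4. TGFBR3 (betaglycan) is a co-receptor without kinase activity that presents ligand, TGF-beta2 above all. In the liver TGF-beta is best known for turning stellate cells into matrix-producing myofibroblasts. In endothelial cells the type I receptor ACVRL1 (ALK1) and the co-receptor endoglin pass signals of the BMP9 and TGF-beta family to SMAD1 and SMAD5 instead.

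The sequences just upstream of the 4 members that passed the test are shown to set the genes of a like direction side by side. Each is the 250 bases before a RefSeq transcript start on the strand of the gene, 5′ to 3′, in build GRCm38.p6. Capitals mark GGGCGG on either strand (CCGCCC on the other), the GC box of the Sp1 family. *Tgfb1* (chr7:25686752-25687001, plus strand) and *Tgfbr2* (chr9:116175364-116175613, minus strand) were lower in siAirn. *Tgfbr1* (chr4:47352972-47353221, plus strand) and *Ltbp1* (chr17:75005279-75005528, plus strand) were higher.
Tgfb1: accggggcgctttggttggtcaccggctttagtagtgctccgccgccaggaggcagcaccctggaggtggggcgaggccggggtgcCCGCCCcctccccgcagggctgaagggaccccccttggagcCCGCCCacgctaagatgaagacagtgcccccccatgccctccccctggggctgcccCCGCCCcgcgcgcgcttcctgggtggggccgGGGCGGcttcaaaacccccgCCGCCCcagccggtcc
Tgfbr2: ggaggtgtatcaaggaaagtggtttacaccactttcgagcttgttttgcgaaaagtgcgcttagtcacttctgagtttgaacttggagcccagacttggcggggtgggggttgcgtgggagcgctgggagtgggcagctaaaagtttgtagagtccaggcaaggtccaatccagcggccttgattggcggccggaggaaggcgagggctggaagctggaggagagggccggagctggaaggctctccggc
Tgfbr1: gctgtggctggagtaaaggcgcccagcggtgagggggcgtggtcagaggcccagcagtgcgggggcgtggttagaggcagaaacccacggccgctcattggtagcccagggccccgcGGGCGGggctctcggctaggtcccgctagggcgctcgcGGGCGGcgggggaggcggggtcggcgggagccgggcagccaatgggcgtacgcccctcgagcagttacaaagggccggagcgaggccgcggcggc
Ltbp1: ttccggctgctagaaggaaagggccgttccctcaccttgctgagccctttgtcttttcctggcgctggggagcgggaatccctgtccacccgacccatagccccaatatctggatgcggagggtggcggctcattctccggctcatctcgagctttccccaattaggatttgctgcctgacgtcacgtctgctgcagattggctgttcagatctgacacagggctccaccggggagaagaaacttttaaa

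The RefSeq table holds a second window for *Tgfbr1* and for *Ltbp1*, at another transcript start, and the first of each is shown. The *Tgfb1* window held 5 GC boxes, at 75.2% GC with 21 CpG dinucleotides. The first *Tgfbr1* window had 74.8% GC with 29 CpG and 2 GC boxes, and the second had 52.8% GC with 3 CpG and 0 GC boxes. *Tgfbr2* (58.4% GC, 12 CpG) and both windows of *Ltbp1* (56.8% and 50.8% GC, 12 and 7 CpG) held 0. Of all 32851 windows of this length in the table, 32.7% held at least 1 GGGCGG and 8.47% held 3 or more, and the median window had 52.4% GC and 6 CpG. RefSeq windows were found for 7 of the 10 members. Those for *Tgfb2*, *Smad3* and *Tgfbi* held 0, 2 and 1 GC boxes. The TATA box TATAAA, found in 12.4% of all windows, was present in that of *Tgfb2* and in no other member's. The AP-1 element TGACTCA (4.46% of all windows) and the SMAD palindrome GTCTAGAC (0.167%), searched on both strands, matched no member window, which says only that these letters are not in these 250 bases. The shorter SMAD box CAGACA (17.1% of all windows) was found once in the *Tgfb2* window, once in the second *Tgfbr1* window and 2 times in the second *Ltbp1* window. The CACC element CCACCC of KLF factors (28.1% of all windows) was found 2 times in the first *Ltbp1* window and 1 time each in those of *Tgfb1* and *Tgfbr2*. A match is a description of the letters and not of binding.

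Per length, the members spanned a wide range of levels. FPKM, in which a count is divided by transcript length and library size, was highest for *Tgfb1* at 110.6 ± 0.212 in NC (mean ± SD, n = 2), above 93.5% of the genes tested by the mean over all libraries. *Tgfbr2* followed at 47.1 ± 2.99 FPKM. *Smad2* (26.8 ± 0.948) and *Smad3* (26.3 ± 2.90) could not be ordered, since their NC libraries overlapped. The same held for *Tgfb3* (20.1 ± 3.49) and *Tgfbr3* (18.9 ± 2.23). *Tgfbr1* stood at 5.26 ± 0.240 FPKM. *Tgfbi* (2.93 ± 0.735) and *Tgfb2* (2.85 ± 0.170) overlapped again, and *Ltbp1* was lowest at 1.28 ± 0.198, above 20.8% of the genes tested. The libraries thus held transcripts of all 3 ligands and all 3 receptors, with the type I receptor below the type II receptor. Which cells of the preparation they came from was not tested. The order depends on the transcript lengths used. With counts divided by the longest GENCODE M21 transcript, *Smad2* stood at 0.12 of the *Tgfb1* level in both NC libraries. It lay below *Smad3* at 0.284 and 0.243 and below *Tgfbr3* at 0.192 and 0.226. *Tgfb1* and *Tgfbr2* remained the highest in NC. In siAirn, *Smad3* at 0.371 and 0.334 of the *Tgfb1* level lay above *Tgfbr2* at 0.313 and 0.291.

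**Figure D1:**
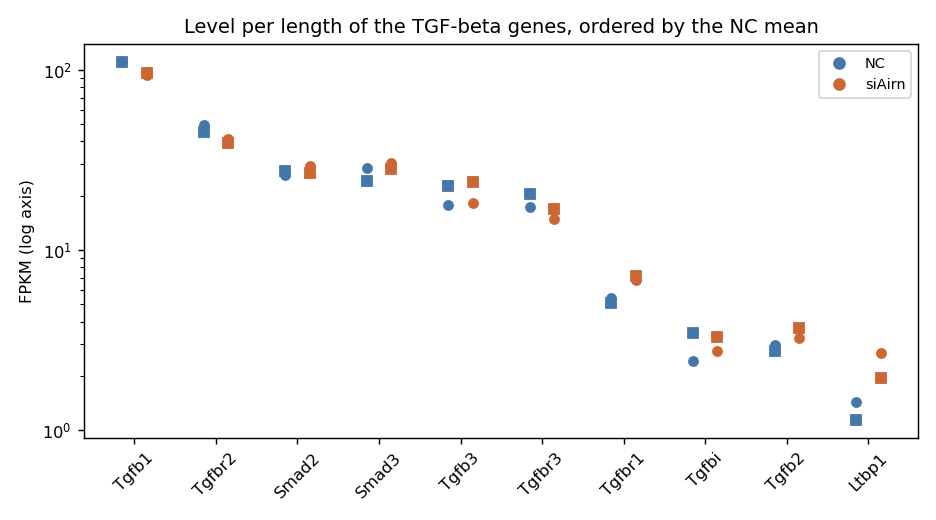
FPKM of the 10 TGF-beta genes in each library on a log axis, ordered by the NC mean (blue NC, orange siAirn, circles replicate 1, squares replicate 2). *Tgfb1* lies highest in every library, with 110.4 and 111 in NC and 94.1 and 96.2 in siAirn.

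Between the groups, 4 of the 10 members passed an adjusted p of 0.05, 2 higher and 2 lower in siAirn. The fit over all genes called 16.8% of the 13628 genes, 8.27% higher and 8.56% lower. *Ltbp1* and *Tgfbr1* rose, and *Tgfb1* and *Tgfbr2* fell. Under the study's threshold, a fold change over 1.4 with an unadjusted p under 0.05, only *Ltbp1* was past it, against 9.96% of all genes. The groups did not overlap for 7 members, against 62.7% of all genes, and overlapped for *Tgfb3*, *Smad2* and *Tgfbi*. In the fit with offsets for GC content and length, which called 8.08% of 12845 genes, 1 member passed, *Tgfbr2*. Folds are log2 fold changes of siAirn relative to NC from edgeR's quasi-likelihood test, with standard error (SE) and Benjamini-Hochberg adjusted p over all genes tested. Levels are CPM, each count as a share of its library after TMM scaling, which compare libraries and not genes. Summed levels of the marker lists are shares of the library total without TMM scaling.

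These calls rest on few libraries. Without siAirn replicate 1 the members called were 1 (*Tgfbr1*), with 2332 of all genes called, and without siAirn replicate 2 they were 2 (*Ltbp1* and *Tgfbr3*), with 1384 of all genes, against 2294 with all libraries. Without NC replicate 1 or NC replicate 2, edgeR's quasi-likelihood test called 0 members, with 5 and 4 at an unadjusted p under 0.05, and 35 and 0 of all genes, with 3475 and 3075 at that unadjusted p. DESeq2 with all libraries called 4 members and 1835 of the 13628 genes. The direction of *Tgfb1*, *Ltbp1*, *Tgfbr1* and *Tgfbr2* was the same without any single library, with log2 fold changes of -0.28 to -0.23, 0.61 to 1.04, 0.34 to 0.42 and -0.33 to -0.20.

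Of the ligands, *Tgfb1* (gene ID 21803), the main TGF-beta of the fibrotic liver, was at 229.8 and 231 CPM in the NC libraries and at 189 and 196 CPM in the siAirn libraries. Both siAirn libraries lay below both NC libraries. The mean went from 230.5 ± 1.00 to 193 ± 4.74 CPM (n = 2 each), and *Tgfb1* fell by 0.26 on the log2 scale (SE 0.06, edgeR adjusted p = 0.0307), or by 16.3%. With GC and length offsets the log2 fold change was -0.16 (SE 0.05, edgeR adjusted p = 0.118), and over the alternatives with all libraries and no replicate block the adjusted p ran from 0.0102 to 0.118.

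*Tgfb2* (21808), the isoform that depends most on betaglycan, was measured at 14.1 and 13.1 CPM in NC and at 14.9 and 17.3 CPM in siAirn. The siAirn libraries were the higher ones without overlap, but replicate 1 of siAirn was close to replicate 1 of NC. Its log2 fold change of 0.25 (SE 0.12) did not pass the test (edgeR adjusted p = 0.204). *Tgfb3* (21809), the third isoform, was at 58.4 and 75.0 CPM in NC and at 58.1 and 77.3 CPM in siAirn. Replicate 2 was the higher library in both groups, and the spread within a group was larger than the difference between them (log2 fold change 0.02, SE 0.16, edgeR adjusted p = 0.945). By the GENCODE M21 annotation, exons of opposite-strand genes cover 12.4% of the exonic bases of *Tgfb3*, and the use of strand in counting is not given in the sources used here, so its counts may hold reads of these genes.

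As a share of the FPKM summed over the 3 ligands, *Tgfb1* made up 84.2% and 81.4% in NC and 81.5% and 77.7% in siAirn, with overlap between the groups. *Tgfb3* made up 13.5% and 16.6% in NC and 15.7% and 19.3% in siAirn, which also overlapped. *Tgfb2* made up 2.27% and 2.01% in NC and 2.81% and 2.99% in siAirn, without overlap. The ligand mixture was thus mostly *Tgfb1* in all 4 libraries. The ligand sum was 131 and 136 FPKM in NC against 115 and 124 FPKM in siAirn. No test is given for such shares, because 2 libraries against 2 cannot go below p = 0.33 in an exact two-sided permutation test.

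*Ltbp1* (268977), which anchors the latent cytokine in the matrix, had the largest change of the 10 members. Its counts were 128 and 111 in NC and 252 and 183 in siAirn, or 7.47 and 6.14 CPM against 13.9 and 10.4 CPM. Both siAirn libraries lay above both NC libraries, with replicate 1 the higher in each group. The mean went from 6.81 ± 0.944 to 12.2 ± 2.54 CPM, and *Ltbp1* rose with a log2 fold change of 0.84 (SE 0.19, edgeR adjusted p = 0.0291), or 1.79-fold. With GC and length offsets it was 0.75 (SE 0.19, edgeR adjusted p = 0.0588), and the adjusted p ran from 0.00137 to 0.0663 over the alternatives with all libraries and no replicate block.

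The other genes of latency and activation were taken from a list of 18 genes, of which 16 were tested. 4 were higher in siAirn, 1 was lower and 11 did not pass, beside 8.27% higher and 8.56% lower of all genes, with a median log2 fold change of 0.13 against 0.00 for all genes. Beside *Ltbp1*, those that rose were *Fbn1*, the fibrillin to which LTBPs attach (0.77, SE 0.12, edgeR adjusted p = 0.0125), *Thbs1*, a thrombospondin that can activate latent TGF-beta (0.66, SE 0.14, edgeR adjusted p = 0.0234, and 0.42 without siAirn replicate 2), and *Itgav*, the integrin alpha chain of the main activating integrins (0.60, SE 0.11, edgeR adjusted p = 0.0168). Each was higher in both siAirn libraries than in both NC libraries. Of the integrin beta chains listed, *Itgb5* (0.25, SE 0.14, edgeR adjusted p = 0.251) and *Itgb6* (1.12, SE 0.42, edgeR adjusted p = 0.110) did not pass. *Itgb6* was scarce, with 9 to 30 counts, and *Itgb8*, with at most 2, was not tested. *Mmp14*, a membrane metalloproteinase, fell by 0.48 (SE 0.06, edgeR adjusted p = 0.00807). *Ltbp2*, *Ltbp3* and *Ltbp4* had log2 fold changes of 0.00, -0.27 and -0.37 and did not pass. *Bgn*, the proteoglycan biglycan and in NC the most abundant gene of the list per length, had -0.33 (SE 0.09, edgeR adjusted p = 0.0537). With GC and length offsets, *Fbn1* and *Mmp14* were the 2 that passed, while *Itgav* had 0.36 and *Thbs1* had 0.55 and did not pass. Without siAirn replicate 1 the list had 6 higher and 2 lower, and without NC replicate 1 or NC replicate 2 edgeR's quasi-likelihood test called 0, with 6 in each case at an unadjusted p under 0.05, while DESeq2 with all libraries called 4 higher and 2 lower.

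Among the receptors, *Tgfbr1* (21812), the type I receptor ALK5, was at 30.7 and 28.9 CPM in NC and at 37.7 and 39.9 CPM in siAirn. The groups were well apart, with SDs of 1.26 and 1.54 CPM around means of 29.8 and 38.8 CPM. *Tgfbr1* rose with a log2 fold change of 0.38 (SE 0.08, edgeR adjusted p = 0.0256), or 1.30-fold. Its longest transcript has 41.0% GC, and 8.92% of the genes tested have a lower GC content, which is the range where the median gene was also higher in siAirn. With the offsets the log2 fold change was 0.17 (SE 0.08, edgeR adjusted p = 0.201), and the adjusted p over the alternatives with all libraries and no replicate block ran from 0.00299 to 0.201.

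*Tgfbr2* (21813), the ligand-binding type II kinase, was at 229 and 210.3 CPM in NC and at 187 and 179 CPM in siAirn. Replicate 1 was the higher library of each group, and both siAirn libraries lay below both NC libraries. The mean went from 219.7 ± 13.2 to 183 ± 5.07 CPM, and *Tgfbr2* fell by 0.26 on the log2 scale (SE 0.07, edgeR adjusted p = 0.0430). With the offsets it fell by 0.44 (SE 0.06, edgeR adjusted p = 0.0132), and the adjusted p over the alternatives with all libraries and no replicate block ran from 0.0132 to 0.0888.

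*Tgfbr3* (21814), betaglycan, was at 104 and 124 CPM in NC and at 86.6 and 99.9 CPM in siAirn. Replicate 2 was the higher in each group, and replicate 2 of siAirn came close to replicate 1 of NC. From 114 ± 13.7 CPM in NC to 93.3 ± 9.38 CPM in siAirn, its log2 fold change of -0.29 (SE 0.10) did not pass (edgeR adjusted p = 0.102). Another gene of the same strand covers 4.54% of its exonic bases.

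The receptors were also compared as shares of their pool. Of the FPKM summed over *Tgfbr1*, *Tgfbr2* and *Tgfbr3*, *Tgfbr1* took 7.54% and 7.21% in NC and 10.8% and 11.3% in siAirn, without overlap. The shares of *Tgfbr2* (68.3% and 63.7% against 65.5% and 61.9%) and *Tgfbr3* (24.1% and 29.1% against 23.6% and 26.8%) overlapped. The ratio of *Tgfbr1* to *Tgfbr2* was 0.110 and 0.113 in NC and 0.165 and 0.182 in siAirn by FPKM, and 0.188 and 0.193 against 0.284 and 0.312 by counts over the longest GENCODE M21 transcript, without overlap on either scale. The type II receptor remained the more abundant in every library. Set against *Acvrl1*, the other endothelial type I receptor of this family, the ratio of *Tgfbr1* was 0.588 and 0.558 in NC and 1.18 and 1.10 in siAirn on the deposited FPKM, which carry no correction for GC content. With GC and length offsets the log2 fold changes of *Tgfbr1* and *Acvrl1* were 0.17 and -0.52, so no order of the pair in siAirn is read from the ratio. The ratio of *Tgfbr3* to *Eng*, the co-receptor endoglin, was 0.0212 and 0.0228 in NC and 0.0267 and 0.0307 in siAirn. These ratios rest on both their genes, and no test is given for them.

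The wider list of receptors and co-receptors held 13 genes, of which 12 were tested. 1 was higher, 3 were lower and 8 did not pass, with a median of -0.10, beside the same shares of all genes. *Eng*, the most abundant receptor gene per length, was at 819.9 and 898 FPKM in NC and at 556 and 553 FPKM in siAirn, and fell by 0.67 (SE 0.07, edgeR adjusted p = 0.00496). *Acvrl1* fell by 0.62 (SE 0.09, edgeR adjusted p = 0.0112), with 9.23 and 9.13 FPKM in NC and 5.79 and 6.48 FPKM in siAirn. The call of *Tgfbr1* ended with GC and length offsets, whereas *Eng*, *Acvrl1* and *Tgfbr2* passed there too. Without NC replicate 1 edgeR's quasi-likelihood test called 1 of the list, and without NC replicate 2 it called 0, with 5 at an unadjusted p under 0.05 (DESeq2 with all libraries called 4).

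**Figure D2:**
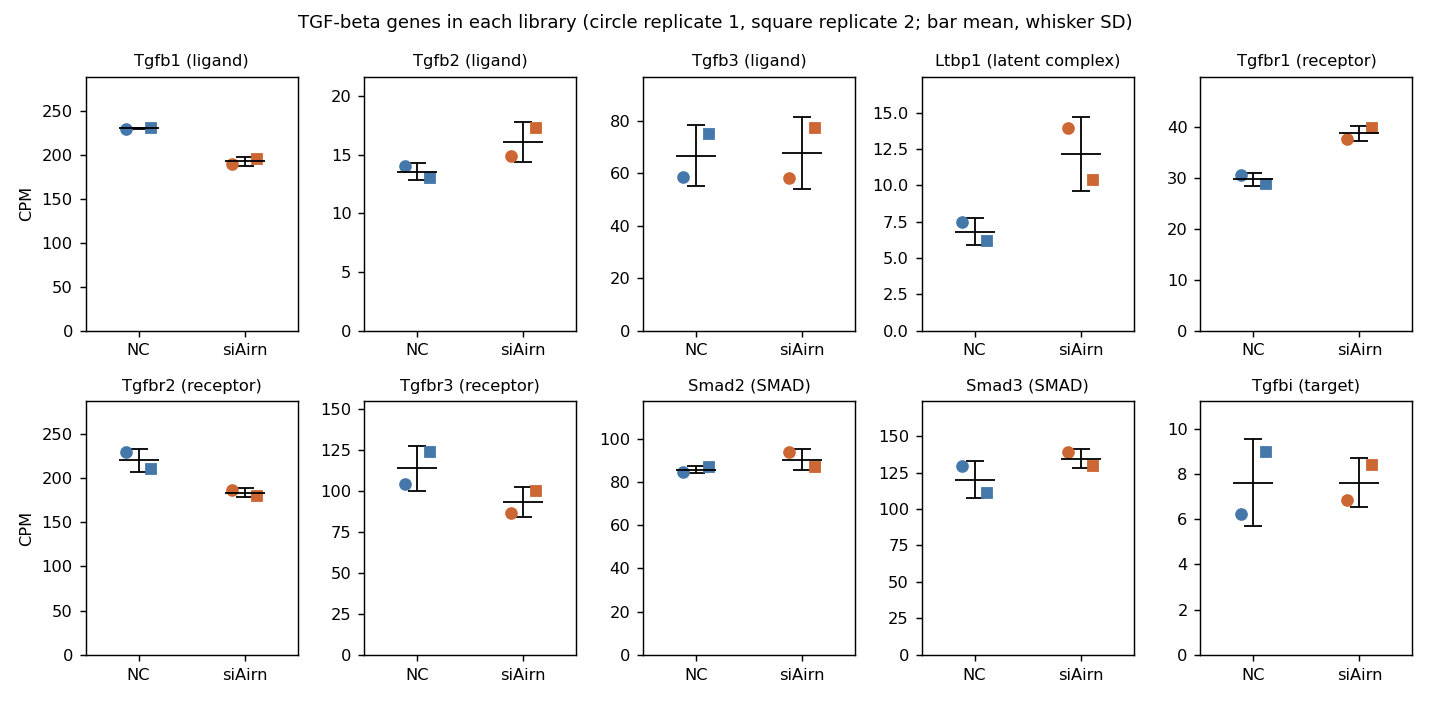
CPM of the 10 TGF-beta genes in each library, one panel per gene with the axis from 0 (circle replicate 1, square replicate 2, bar mean, whisker SD, n = 2). Both siAirn libraries lie below both NC libraries for *Tgfb1*, *Tgfbr2* and *Tgfbr3* and above them for *Tgfb2*, *Ltbp1*, *Tgfbr1* and *Smad3*.

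Neither of the receptor-activated SMADs passed the test. *Smad2* (17126) was at 84.5 and 86.9 CPM in NC and at 93.8 and 86.9 CPM in siAirn. Replicate 2 of both groups stood at the same level, and replicate 1 of siAirn alone was higher. Its log2 fold change was 0.08 (SE 0.07, edgeR adjusted p = 0.469) and became -0.17 (SE 0.07) with GC and length offsets, so no direction is given for it. *Smad3* (17127) was at 129 and 111 CPM in NC and at 139 and 129.8 CPM in siAirn. The groups came within 1 CPM of each other without overlapping, and replicate 1 was the higher in both. The log2 fold change of 0.16 (SE 0.09) did not pass (edgeR adjusted p = 0.238). By FPKM the ratio of *Smad3* to *Smad2* was 1.08 and 0.883 in NC and 1.04 and 1.05 in siAirn, and by counts over the longest GENCODE M21 transcript it was 2.43 and 2.03 against 2.35 and 2.37. The groups overlapped on both scales, and no order of the SMADs is read from either.

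Of the 21 genes on the list of SMADs and their regulators, 1 was higher, 3 were lower and 17 did not pass, with a median of 0.08, a share of calls near the 16.8% of all genes. *Smad4*, the common partner, had a log2 fold change of 0.15 (SE 0.07, edgeR adjusted p = 0.163), and *Smad7*, the inhibitor that TGF-beta itself induces, had 0.02 (SE 0.09, edgeR adjusted p = 0.874). *Smad6*, the inhibitor induced mainly by SMAD1 and SMAD5, fell by 0.66 (SE 0.07, edgeR adjusted p = 0.00496) in both siAirn libraries. *Skil*, a nuclear co-repressor of SMADs, rose by 0.34 (SE 0.07, edgeR adjusted p = 0.0197), and *Pmepa1*, a membrane protein that restrains SMAD2 and SMAD3, fell by 0.31 (SE 0.07, edgeR adjusted p = 0.0315). The third that fell, *Smurf1*, a ubiquitin ligase of the pathway, was at the threshold (-0.22, SE 0.06, edgeR adjusted p = 0.0499). Only *Smad6* passed with GC and length offsets. Without siAirn replicate 2 the list had 1 call, and without NC replicate 1 or NC replicate 2 it had 0 by edgeR's quasi-likelihood test, with 8 and 4 at an unadjusted p under 0.05, while DESeq2 with all libraries called 2. Of the 10 mediators outside the SMADs, such as *Rhoa* (-0.01, SE 0.06) and *Shc1* (0.00, SE 0.06), edgeR's quasi-likelihood test and DESeq2 each called 0 at an adjusted p under 0.05, with 4 and 2 at an unadjusted p under 0.05, and their median was 0.08.

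*Tgfbi* (21810), which encodes a matrix protein secreted in response to TGF-beta, was scarce in these libraries. Its counts were 107 and 162 for NC and 124 and 148 for siAirn, or 6.25 and 8.96 CPM against 6.86 and 8.37 CPM. The siAirn libraries lay between the NC libraries. The log2 fold change was 0.00 with an SE of 0.21 (edgeR adjusted p = 0.999), and its sign differed between settings. With counts this low and replicates up to 1.43-fold apart, a change of the size seen in *Tgfb1* or *Tgfbr2* was not detectable.

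**Figure D3:**
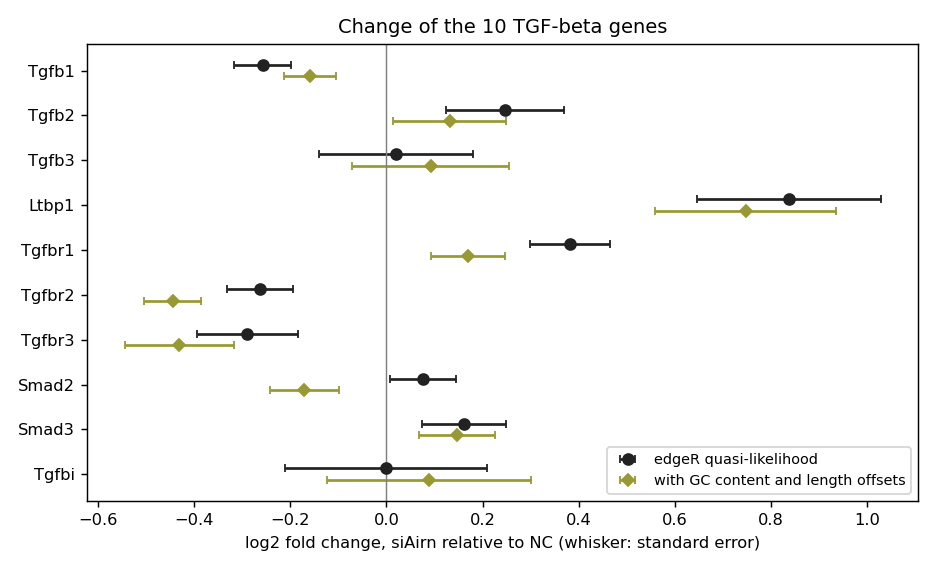
Log2 fold change of the 10 TGF-beta genes, siAirn relative to NC, from edgeR's quasi-likelihood test (black) and with GC content and length offsets (olive), with standard errors as whiskers. *Tgfbr1* goes from 0.38 to 0.17 and *Tgfbr2* from -0.26 to -0.44 with the offsets.

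Beside *Tgfbi*, a list of 30 genes known to be induced by TGF-beta was followed, *Tgfbi* included. 9 were higher in siAirn, 1 was lower and 20 did not pass, with a median of 0.22, beside 8.27% higher and 8.56% lower of all genes. The genes that rose included *Col3a1*, a fibrillar collagen (0.76, SE 0.08, edgeR adjusted p = 0.00509), *Lox*, the enzyme that cross-links collagen (0.73, SE 0.17, edgeR adjusted p = 0.0300), and *Fn1*, fibronectin (0.66, SE 0.17, edgeR adjusted p = 0.0450). *Fn1* was not called by DESeq2 and had 0.34 without siAirn replicate 2. The others were *Tnc* (0.60, and 0.38 without siAirn replicate 2), *Postn* (0.48), *Zeb2* (0.44), *Klf10* (0.43), *Skil* (0.34) and *Acta2* (0.33), and *Pmepa1* was the gene that fell. *Ccn2*, the connective tissue growth factor, had a log2 fold change of 0.10 (SE 0.13) and did not pass (edgeR adjusted p = 0.631). With GC and length offsets 3 of the 30 were higher (*Col3a1*, *Klf10* and *Acta2*), beside 8.08% of all genes called, and the list median was 0.20. *Lox*, *Fn1* and *Tnc* had 0.60, 0.53 and 0.49 there, and *Postn*, *Zeb2* and *Skil* had 0.23, 0.13 and 0.09. Without siAirn replicate 1 the number higher was 13, without siAirn replicate 2 it was 4, and without NC replicate 1 or NC replicate 2 it was 0 by edgeR's quasi-likelihood test, with 8 and 13 at an unadjusted p under 0.05, while DESeq2 with all libraries called 9.

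Genes induced through SMAD1 and SMAD5, the branch downstream of ACVRL1, formed a further list. Of 9, 5 were lower and 4 did not pass, with a median of -0.51, beside 8.56% lower of all genes, and DESeq2 also called 5 lower. They were *Id4* (-0.91, SE 0.09, edgeR adjusted p = 0.00496), *Smad6*, *Id2* (-0.54, SE 0.11, edgeR adjusted p = 0.0216), *Id1* (-0.54, SE 0.11, edgeR adjusted p = 0.0232) and *Id3* (-0.34, SE 0.06, edgeR adjusted p = 0.0177), of which the Id genes encode inhibitors of helix-loop-helix factors. *Id4*, *Id2* and *Smad6* passed with the offsets too. *Id1* and *Id3* had -0.32 and -0.13 there and did not pass, and the list median was -0.32. Without NC replicate 1 the number lower was 1, and without NC replicate 2 it was 0 by edgeR's quasi-likelihood test, with 5 and 6 at an unadjusted p under 0.05. The difference between the lists was not tested.

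**Figure D4:**
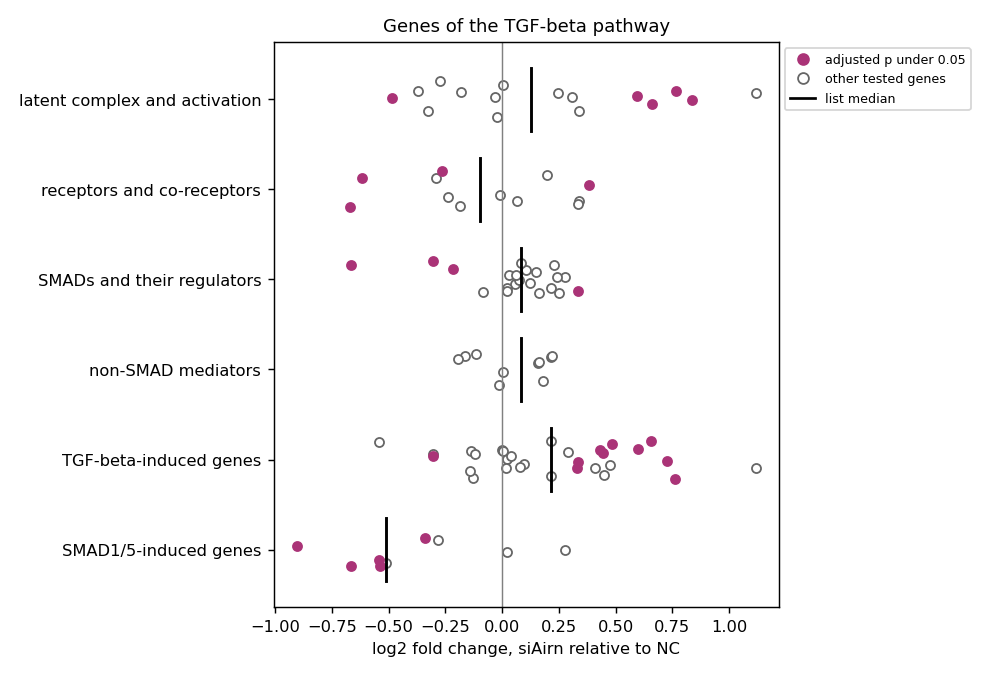
Log2 fold change of the tested genes of 6 TGF-beta pathway lists, siAirn relative to NC, with genes at an adjusted p under 0.05 filled and the list median as a bar. The median of SMAD1/5-induced genes lies at -0.51 and that of TGF-beta-induced genes at 0.22. Genes are jittered vertically.

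Markers of the cell types in such a preparation were followed beside these results, again against 8.27% higher and 8.56% lower of all genes. In bulk libraries, fewer cells of a type and less RNA per cell cannot be told apart. LSEC markers were abundant, and 8 of 10 tested were lower in siAirn (summed level 3777 to 3795 CPM in NC, 2457 to 2768 CPM in siAirn). *Clec4g*, a lectin of the sinusoidal endothelium, fell by 1.33 (SE 0.14, edgeR adjusted p = 0.00508). *Cd209b*, the eleventh of this list, was near 0 with at most 2 counts. Of 10 pan-endothelial markers, *Eng* among them, 7 were lower (10088 to 10656 CPM in NC, 6896 to 7942 CPM in siAirn). The others, *Kdr* (0.02, SE 0.10, edgeR adjusted p = 0.901), *Tek* (-0.05, SE 0.11, edgeR adjusted p = 0.755) and *Emcn* (-0.29, SE 0.10, edgeR adjusted p = 0.0961), did not pass.

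Stellate cell and fibroblast markers had 3 of 13 higher by edgeR's quasi-likelihood test and 5 by DESeq2, with 11 without siAirn replicate 1 and 1 without siAirn replicate 2 (1120 to 1325 CPM in NC, 1369 to 1785 CPM in siAirn). *Reln* (0.98, SE 0.14, edgeR adjusted p = 0.00946), *Lum* and *Acta2* were the genes that rose, while *Gfap* had at most 3 counts and the retinoid enzyme *Lrat* had 67 to 214 counts. *Col1a1*, *Col1a2* and *Acta2* stand on this list and on that of TGF-beta-induced genes, and collagens and fibronectin are also made by stellate cells and fibroblasts. Hepatocyte markers had 1 of 9 higher by edgeR's quasi-likelihood test, near the share of all genes, 2 by DESeq2 and 3 without siAirn replicate 1 (597 to 756 CPM in NC, 856 to 1104 CPM in siAirn). Kupffer cell and macrophage markers had 7 of 11 lower by edgeR's quasi-likelihood test, 4 by DESeq2 and 4 without siAirn replicate 2 (241 to 305 CPM in NC, 157 to 189 CPM in siAirn), and the macrophage marker *Adgre1* had 50 to 110 counts. The counts of all 5 lists, too, rest on the NC libraries: without NC replicate 2, edgeR's quasi-likelihood test called 0 of the markers, with 10 LSEC, 7 pan-endothelial, 5 Kupffer cell, 8 stellate cell and 4 hepatocyte markers at an unadjusted p under 0.05. Without siAirn replicate 2 it called 0 hepatocyte markers, with 2 at an unadjusted p under 0.05. Without NC replicate 1 it called 1 LSEC and 1 pan-endothelial marker and 0 of the other lists, with 8, 7, 11, 2 and 0 at an unadjusted p under 0.05 in the same order. With GC and length offsets the markers called were 9 LSEC, 4 pan-endothelial, 1 Kupffer cell, 2 stellate cell and 1 hepatocyte. The part of these cell types in the values of the TGF-beta genes, of *Eng* and of the induced genes was not tested.

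**Figure D5:**
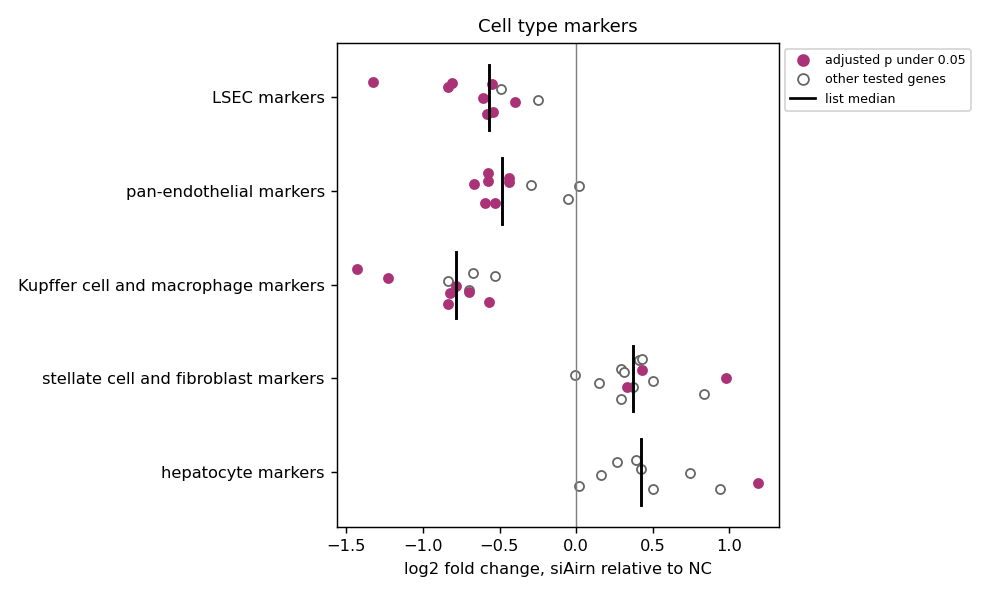
Log2 fold change of the tested markers of 5 liver cell types, siAirn relative to NC, with genes at an adjusted p under 0.05 filled and the list median as a bar. Medians lie at -0.57 for LSEC, -0.49 for pan-endothelial, -0.78 for Kupffer cell, 0.37 for stellate cell and 0.42 for hepatocyte markers. Genes are jittered vertically.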

How the data were processed

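RNA-seq libraries of primary LSECs (2 NC, 2 siAirn) were grouped by the labels. The authors deposited estimated counts per gene, not normalized, of which 76.5% to 76.8% were whole numbers (all 40 member values were). They also deposited values whose header names no unit, read as FPKM because they scale with count, length and library total. BWA, Bowtie2, RSEM and build hg19 are named, without roles, in the submitters' processing notes. hg19 is a human build, so no coordinates rest on it. Reads were single-end of 50 bases.

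Counts were rounded and fitted in R 4.3.3 with edgeR 4.0.16 (TMM factors 0.985 to 1.02, filterByExpr defaults, glmQLFit and glmQLFTest, no covariate), with Benjamini-Hochberg adjustment over 13628 genes. CPM values of single genes use the TMM library sizes, and the summed levels of the marker lists use the library totals. SEs derive from the F statistic. The study's methods state no count model. Alternatives were DESeq2 1.42.0 (adjusted p missing for 2907 genes), upper-quartile scaling, other filters, the likelihood-ratio test, limma 3.58.1 on log2(FPKM + 1) and log2(FPKM + 0.1) at a mean of at least 1 FPKM, a replicate block, spline offsets (5 degrees of freedom) for GC content and length of the longest GENCODE M21 transcript, matched by gene ID for 94.3% of genes tested, and leaving out each library. The main fit, the replicate block, the likelihood-ratio test, upper-quartile scaling, DESeq2, limma and a fit without a library were tested on simulated data. The other filters and the GC and length offsets were not.

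The members, gene lists and tests were chosen with earlier results of these data known, so they are not independent support. Named were all members. From each pathway list came genes among the 2 most abundant and the 3 largest changes with an adjusted p under 0.05. *Itgav*, *Itgb5*, *Itgb6*, *Itgb8*, *Mmp14*, *Ltbp2*, *Ltbp3*, *Ltbp4*, *Smad4*, *Smad7*, *Smurf1*, *Id1*, *Id3*, *Kdr*, *Tek*, *Emcn* and the remaining pathway genes counted as called were named for completeness after their values were seen. Of the markers, only some were named, and none of the hepatocyte markers. *Ccn2* was matched by gene ID. Of the genes this rule names, 1 is not reported here. Upstream sequences are from RefSeq (GRCm38.p6).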

Additional observations from a re-analysis of the deposited data

How the results depend on the processing

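The number of TGF-beta members with an adjusted p under 0.05 was 4 with DESeq2, upper-quartile scaling, either filter and the likelihood-ratio test, 1 with limma on either FPKM scale (*Tgfbr1*, beside 1743 and 1747 of 11667 genes), 1 with GC and length offsets (*Tgfbr2*) and 0 to 2 when a library was left out. Past a fold of 2, 0 members remained, although 5 had an unadjusted p under 0.05 in edgeR's test. In fits without a library, the lone library of a group is assumed to vary like the other group. The called members kept their direction under every alternative. The log2 fold change of *Tgfb1* was -0.22 with limma on either scale, -0.16 with the offsets and -0.28 to -0.23 without a library. *Ltbp1* had 0.53 and 0.79 with limma (pseudocounts 1 and 0.1), 0.75 with the offsets and 0.61 to 1.04 without a library. *Tgfbr1* had 0.17 with the offsets, with or without the replicate block, and 0.34 to 0.42 without a library. *Tgfbr2* had -0.22 with limma on either scale and -0.33 to -0.20 without a library. All these lost their call except *Tgfbr1* without siAirn replicate 1 and *Ltbp1* without siAirn replicate 2. *Tgfbr3* had -0.41 to -0.16 without a library and passed without siAirn replicate 2 (-0.40). Signs turned for *Smad2* with the offsets (-0.17 with and without the block), for *Tgfb3* without a library (-0.20 to 0.21) and for *Tgfbi*, which had 0.0057 with DESeq2, 0.0022 with at least 10 counts in every library, 0.00027 with the likelihood-ratio test, 0.042 and 0.058 with limma, 0.010 with the block, 0.089 with the offsets, 0.099 with both and -0.24 to 0.28 without a library. The cause of these differences was not tested.

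The replicate block raised the calls to 6 members and 4841 of 13628 genes, adding *Tgfbr3* (-0.29, edgeR adjusted p = 0.00133) and *Smad3* (0.16, edgeR adjusted p = 0.0297). With block and offsets 6 members passed beside 4094 of 12845 genes, *Tgfbr3* at -0.43, *Smad3* at 0.15 and *Smad2* at -0.17 among them. With the block, and with block and offsets, TGF-beta-induced genes called higher were 13 and 17 of 30, and 3 and 1 were lower. Stellate cell markers higher were 10 and 11 of 13, and hepatocyte markers higher were 3 and 3 of 9. Markers called lower were 10 and 10 of 10 for LSECs, 8 and 9 of 10 for pan-endothelial cells and 10 and 10 of 11 for Kupffer cells. Other lists moved too, given in the same order. SMADs and their regulators had 7 and 2 of 21 higher, and 3 and 5 lower. Mediators outside the SMADs had 4 and 1 of 10 higher, and 0 and 1 lower. Genes of latency and activation had 7 and 6 of 16 higher, and 4 and 4 lower. Receptors and co-receptors had 3 and 0 of 12 higher, and 5 and 6 lower. SMAD1/5-induced genes lower were 6 and 4 of 9. The differences between replicates correlated across genes at 0.233 between the groups, but the labels name no shared batch for a number, so the libraries share only a number. In every library *Tgfbi* and *Ltbp1* had the fewest counts of the members, with 107 to 252 per library.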
